A study of Mus musculus with 2 samples.

Results

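The Myc and Max network is a family of transcription factors, and its genes were examined for binding by the transcription factor Myb in WT mouse bone marrow progenitors. The 10 members were the activators Myc, Mycn and Mycl, their shared partner Max, the antagonists Mxd1, Mxd3, Mxd4, Mxi1 and Mnt, and Mga. A Myb peak was assigned to a member when its summit lay in the gene body or within 50 kb of it, and for Myc also when it lay up to 2 Mb past the 3′ end. By this rule 60 of the 25793 peaks of the Myb library belonged to the 10 genes, 46 of them in the genes and their 50 kb flanks and 14 in the long stretch past Myc.

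Both samples were WT mouse bone marrow depleted of cells that carry markers of mature lineages (Lin- cells), and the labels give no strain, age or treatment. The study's methods describe its WT mice as carrying Ep300 alleles made for conditional deletion, without Cre, and as injected with poly(I:C). Its section on the Myb libraries does not describe the mice. Chromatin was precipitated with an antibody against Myb in one sample and with normal rabbit IgG in the other, with 1 library of each. The study measured Myb binding in these WT cells to ask which of its genes with altered expression, found in another genetic background, Myb binds. Lin- cells are a mixture of stem cells and progenitors of several lineages, so a peak does not show which of them carried the binding.

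Myc proteins bind DNA as a pair with Max, at the sequence CACGTG known as the E-box, and activate genes of cell growth, ribosome production and division. Mxd1, Mxd3, Mxd4, Mxi1 and Mnt compete for Max, bind the same sites and recruit repressor complexes, so the balance between both arms follows a cell from proliferation to differentiation. In blood, Myc is known to be driven by enhancers that lie far past the gene, in a stretch of DNA with few protein-coding genes. Myb itself is a transcription factor that stem and progenitor cells of the blood need for their growth and maturation.

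Each peak is described by its fold enrichment, which is the ratio of Myb signal to local IgG background at the summit, and by the number of Myb reads at the summit. Read numbers were recovered from the listed fold enrichment and p-value and carry exact Poisson 95% intervals, which cover counting error only. Over all peaks the median was 4.51-fold and 18 reads. The 60 peaks of the network had a median of 4.71-fold and 20.5 reads, with between 9 and 66 reads each, and 27 of them rested on fewer than 20 reads. A q-value above 0.05 was listed for 8 of the 60 (13.3%), beside 7.24% of all peaks. There was no replicate library, so no difference below was tested and no value carries biological error.

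At loci with known activity in progenitors (Kit, Cd34, Gata2, Runx1 and Spi1), 4 of 5 genes had a promoter peak and 5 of 5 had a peak within 50 kb. At loci of mature or other cells (Cd3e, Ms4a1, Alb, Myh6 and Neurod1), 0 of 5 had a promoter peak and 3 of 5 had a peak within 50 kb. Over all protein-coding genes these shares were 39.9% and 68.7%. The strongest peaks within 50 kb were 7-fold at Cd3e, 7.9-fold at Ms4a1 and 4.82-fold at Myh6, beside 8.28-fold (Cd34) to 20.2-fold (Runx1) at the progenitor loci. The difference was not tested.

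The DNA at 5 summits is given first, namely the strongest 2 past Myc, both of Mnt and the single one of Mycn, because these peaks carry the highest values past Myc, at Mnt and at Mycn. Each window holds the 101 bases centered on the summit, in mm10, and capitals mark a match to a Myb, GATA, ETS, RUNX or E-box motif. The windows past Myc lie in introns of a long noncoding RNA gene, and those of Mnt and Mycn lie upstream of or inside the gene, outside exons.
Myc +1663 kb (chr15:63648352-63648452, + strand, 20.1-fold): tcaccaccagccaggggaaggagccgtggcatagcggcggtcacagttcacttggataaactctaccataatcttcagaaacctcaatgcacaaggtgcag
Myc +1719 kb (chr15:63704796-63704896, + strand, 16.3-fold): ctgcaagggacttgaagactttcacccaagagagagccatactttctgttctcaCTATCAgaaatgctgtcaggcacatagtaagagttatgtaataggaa
Mnt intron, +7.28 kb (chr11:74838152-74838252, + strand, 15.2-fold): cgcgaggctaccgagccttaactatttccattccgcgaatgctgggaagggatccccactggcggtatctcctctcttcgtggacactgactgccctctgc
Mnt promoter, −362 bp (chr11:74830508-74830608, + strand, 10.6-fold): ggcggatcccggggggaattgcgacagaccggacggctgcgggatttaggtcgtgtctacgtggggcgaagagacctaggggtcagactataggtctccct
Mycn intron, +3.38 kb (chr12:12938484-12938584, + strand, 6.55-fold): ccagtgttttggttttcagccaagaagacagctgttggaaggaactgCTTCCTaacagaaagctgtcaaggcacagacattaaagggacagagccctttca
These 5 windows, which are not the 5 strongest of the network, hold no Myb motif, counted as CAACGG or CAACTG or TAACGG or TAACTG on either strand. The single GATA match, CTATCA, at +1719 kb is the reverse complement of TGATAG. Mycn has an ETS match, CTTCCT.

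The next windows were chosen because they hold a Myb motif or an E-box, and the first 2 of them, at 7.41-fold and 7.77-fold, are stronger than that of Mycn.
Pvt1 intron, Myc +174 kb (chr15:62159054-62159154, + strand, 7.41-fold): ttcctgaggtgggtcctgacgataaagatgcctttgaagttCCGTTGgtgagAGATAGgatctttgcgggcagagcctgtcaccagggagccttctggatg
Pvt1, Myc +236 kb (chr15:62221181-62221281, + strand, 7.77-fold): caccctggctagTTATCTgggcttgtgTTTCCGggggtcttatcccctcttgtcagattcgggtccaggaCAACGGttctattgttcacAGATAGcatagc
Mycl upstream, −4170 bp (chr4:122991432-122991532, + strand, 4.33-fold): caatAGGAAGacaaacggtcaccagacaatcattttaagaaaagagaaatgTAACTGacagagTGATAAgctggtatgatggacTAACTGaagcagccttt
Mxi1 promoter, +773 bp (chr19:53311241-53311341, + strand, 6.49-fold): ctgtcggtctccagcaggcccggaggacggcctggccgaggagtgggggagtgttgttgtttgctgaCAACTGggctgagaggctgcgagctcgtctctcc
past Mxd1, +29.8 kb (chr6:86639333-86639433, + strand, 5.71-fold): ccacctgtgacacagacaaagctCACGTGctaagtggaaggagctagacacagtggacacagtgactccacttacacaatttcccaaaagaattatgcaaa
CCGTTG in the first of these is the reverse complement of CAACGG. The Mycl window holds TAACTG at separate positions with a GATA match, TGATAA, between them. The last window, past the 3′ end of Mxd1, holds the E-box CACGTG and no Myb motif. The form CAACTG of the Myb motif also fits the general E-box CANNTG, so only CACGTG was counted as an E-box here.

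All 10 members had at least 1 Myb peak in the gene or within 50 kb of it, beside 68.7% of the 21938 protein-coding genes, silent genes of this tissue included. A promoter peak, with its summit within 3 kb of an annotated start site of the gene, was present at 8 of 10 members, beside 39.9% of protein-coding genes. The 2 members without one were Mycl and Mxd4. The median was 4 peaks per member, beside 2 over all protein-coding genes with quartiles of 0 and 5. Of the 46 peaks in the genes and flanks, 21 had a start site of the member as the nearest start site, and the rest lay closer to a start site of another gene.

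**Figure D1:**
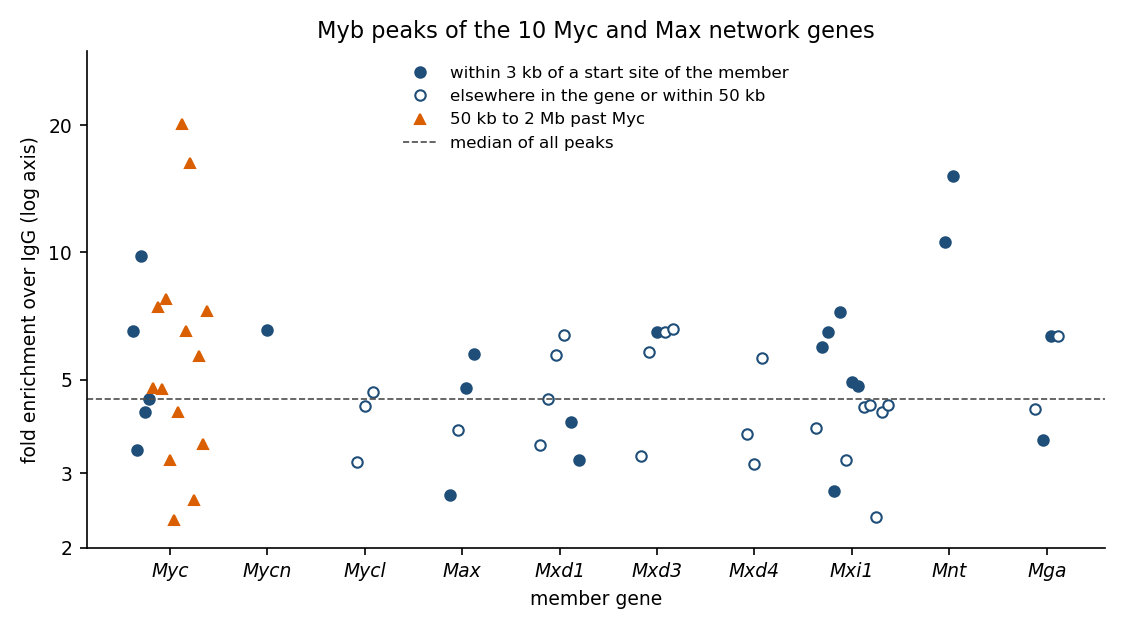
Fold enrichment over IgG (log axis) of every Myb peak of the 10 members. Each symbol is 1 peak of the single Myb library, filled circles lie within 3 kb of a start site of the member, open circles lie elsewhere within 50 kb, triangles are the 14 peaks past Myc, and the dashed line is the median of all peaks (4.51-fold). The peaks of Mnt at 10.6-fold and 15.2-fold and of Myc at 16.3-fold and 20.1-fold stand above 10-fold, and all other peaks lie below it.

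Myc, the activator best known from growing progenitors, had 5 peaks in its gene and flanks (chr15:61985391-61990374, + strand), and all 5 were promoter peaks. The strongest had its summit 336 bp before the start site, at 9.79-fold with 33 reads (95% interval 22.7 to 46.3), and 95.2% of all peaks were weaker. The other 4 peaks were weaker, and 3 of them lay below the median of all peaks. They were at 6.5-fold (21 reads, 1687 bp before the start), 3.41-fold (12 reads, 1176 bp before), 4.2-fold (26 reads, 142 bp past the start, in the first exon) and 4.49-fold (15 reads, 2736 bp past the start). The summits at 6.5-fold and 3.41-fold lay nearer a start site of another annotated gene, Gm37947, at 402 and 913 bp. The peak at 3.41-fold was the one of these with a Myb motif within 50 bp of the summit. The strongest promoter summit had its nearest Myb motif 87 bp away and a RUNX match, TGCGGT, inside the window.

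Mycn, the family member best known from neural and embryonic tissue, had 1 peak, at 6.55-fold with 21 reads (13 to 32.1). Its summit lay in an intron 3.38 kb past the gene start and 2082 bp from the nearest annotated start site of Mycn. Mycl, the third activator, had 3 peaks and none at a promoter. They stood at 3.2-fold (10 reads, 12.8 kb before the start, q above 0.05), 4.33-fold (13 reads, 4170 bp before) and 4.67-fold (23 reads, 30.9 kb past, in an intron of the neighbor Trit1). Over the 3 activators the 9 peaks had a median of 4.49-fold, and Myc held the highest of them.

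Max, the partner that every Myc and Mxd protein needs to bind DNA, had 4 peaks, all in the gene and 3 of them at promoters. The strongest summit lay 9 bp past the gene start, at 5.75-fold with 20 reads (12.2 to 30.9), and had a Myb motif 22 bp away. The others were at 4.77-fold (17 reads, 939 bp past the start), 3.79-fold (14 reads, 3.58 kb past) and 2.66-fold (16 reads, 20.4 kb past, q above 0.05). The summit at 2.66-fold counts as a promoter peak, 1841 bp from an annotated Max start site, but lay nearer one of Gm47218 (42 bp). The reads at the Max start and at the strongest Myc promoter summit had overlapping intervals.

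Among the antagonists, the 5 genes held 29 peaks with a median of 4.51-fold, the same as over all peaks. Promoter peaks were present at 4 of the 5. Mnt, a repressor found in most tissues that is thought to set the baseline against which Myc works, had the fewest peaks of the 5 and the strongest. Its body (chr11:74830920-74845725, + strand) held a peak of 15.2-fold with 54 reads (40.6 to 70.5), in an intron 7.28 kb past the gene start and 734 bp from an internal annotated start site. It ranked 207 of 25793 by fold enrichment. The other Mnt peak spanned the promoter over 4872 bp, with the summit 362 bp before the gene start, at 10.6-fold with 50 reads (37.1 to 65.9). The read intervals of both Mnt peaks overlapped each other. In the same kind of window, 97.6% of the protein-coding genes had a weaker strongest peak than Mnt or no peak at all. Only 68.7% of these genes had a peak in that window.

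Mxi1, an Mxd family repressor also called Mxd2, had the most peaks within the gene and 50 kb flanks, 13, of which 7 lay in the gene body and 6 were promoter peaks. Its gene spans 65293 bp, so its window was longer than those of the small members, and 96.6% of protein-coding genes had fewer peaks. The strongest was an intron peak of 7.21-fold with 30 reads (20.2 to 42.8), 3.6 kb past the gene start and 1049 bp from another start site of the gene. At the first start site the peak was 5.98-fold (22 reads, 8 bp past the start), and the next, 773 bp past the start, was 6.49-fold (24 reads) with a CAACTG motif 19 bp from the summit. Further along the gene were peaks of 3.22-fold (28 reads, 15.4 kb past the start), 4.94-fold (17 reads, 18.1 kb) and 4.83-fold (16 reads, 19.4 kb). The summit at 3.22-fold lay 189 bp from a start site of another annotated gene, AC133451.2, and 3481 bp from the nearest one of Mxi1. At the lower end were 2.73-fold (20 reads, 2.09 kb past the start) and 2.37-fold (11 reads, 112 kb past the start, q above 0.05). Of the 6 peaks outside the gene body, those at 4.31-fold and 4.36-fold, 79.2 and 80.5 kb past the start, lay at start sites of the next gene, Smndc1, and of a noncoding transcript beside it. The remaining peaks were intergenic, at 3.84-fold (11 reads, 25827 bp before the start), 4.2-fold (26 reads, 113 kb past the start) and 4.36-fold (27 reads, 114 kb past it).

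Mxd1, a repressor that rises as myeloid cells mature, had 6 peaks and weak ones at its own promoters. Those were 3.23-fold (16 reads, 647 bp before the start) and 3.98-fold (17 reads, 2.95 kb past the start), both below the median of all peaks. The summit at 3.98-fold lay nearer a start site of Gm44292 (659 bp) than one of Mxd1 (2890 bp), so only 1 of the 6 peaks had a start site of Mxd1 as the nearest. Past the 3′ end of the gene, 3 summits lay at 29.2, 29.8 and 31.7 kb from the start, with 6.38-fold (28 reads, 18.6 to 40.5), 5.71-fold (20 reads) and 4.51-fold (16 reads). All 3 lay closer to a start site of the neighbor Asprv1 (11783, 11219 and 9274 bp away) than to one of Mxd1. A further peak at 68.9 kb had 3.5-fold and 26 reads. The peaks at 29.8 kb and at 2.95 kb were the 2 of 60 with an E-box within 50 bp of the summit.

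Mxd3, a member expressed in dividing cells, had a promoter peak of 6.49-fold with 24 reads (15.4 to 35.7), 486 bp before its start. Its other 4 peaks belonged by position to neighbors. Those at the start sites of Rgs14, Lman2 and Rab24 were 6.6-fold (24 reads), 6.47-fold (24 reads) and 5.81-fold (22 reads), and the weakest, 3.3-fold with 10 reads and q above 0.05, was in an intron of Nsd1. Mxd4, linked to differentiated cells, had no peak nearest to its own start site. Its 3 peaks, at 5.64-fold (28 reads), 3.71-fold (18 reads) and 3.15-fold (11 reads, q above 0.05), were nearest the start sites of Poln and Haus3, with summits 18.3 to 21.6 kb past the Mxd4 start.

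Mga, a large protein that pairs with Max and takes part in a repressive Polycomb complex, had 4 peaks. At its start a peak of 6.33-fold with 31 reads (21.1 to 44) had its summit 193 bp past the start, and a weaker one of 3.59-fold (11 reads) lay 823 bp before it. The remaining peaks, at 6.34-fold (19 reads, 98.9 kb past the start, in an intron of Mapkbp1) and 4.25-fold (15 reads, 24.1 kb before the start), were outside the gene. For 5 of the 10 members the strongest peak near the gene was a promoter peak of the member, and for the other 5 it lay elsewhere. The intron summits of Mycn, Mxi1 and Mnt count among these promoter peaks, because each lay within 3 kb of an annotated start site of its gene.

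**Figure D2:**
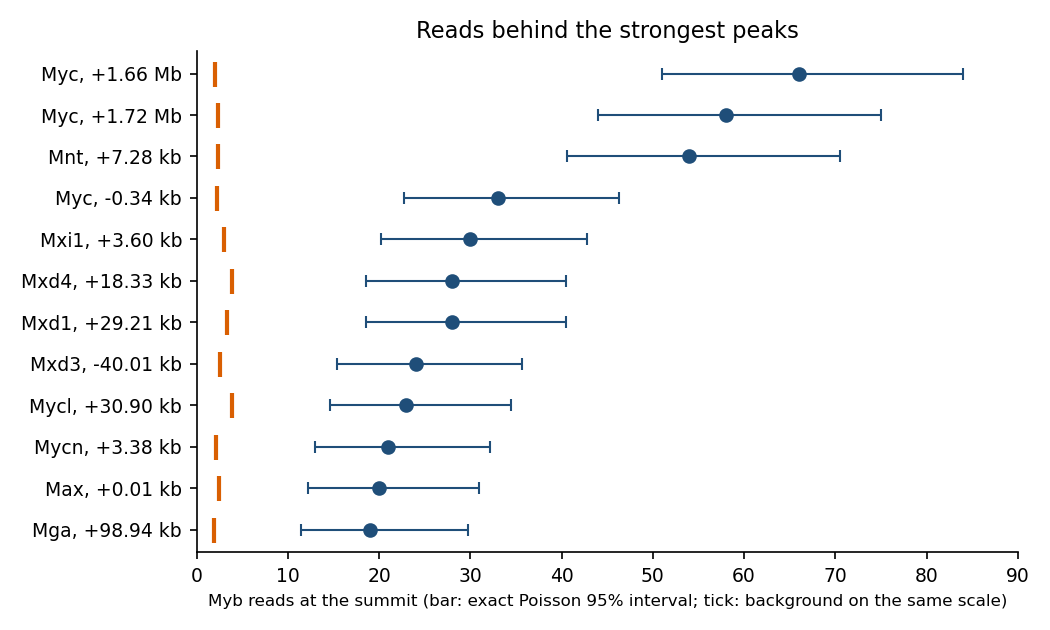
Myb reads at the summit of the strongest peak near each member and of the strongest 2 peaks past Myc, labeled by distance from the gene start. Points are reads, bars are exact Poisson 95% intervals (counting error only) and orange ticks are the IgG background on the same scale. The peaks 1663 kb and 1719 kb past the Myc start and the Mnt intron peak lead with 66, 58 and 54 reads, and their intervals overlap.

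The strongest of the 60 peaks did not lie at a promoter but far past Myc, in a stretch searched for Myc alone. Peaks more than 50 kb from any other member were not counted, so the members are not compared over like windows here. At 1663 kb from the Myc start, a peak 1138 bp wide (chr15:63648001-63649138) reached 20.1-fold with 66 reads (51 to 84) over a scaled background of 1.58, and it ranked 42 of 25793. At 1719 kb, 56.4 kb further on, a peak of 938 bp (chr15:63704492-63705429) reached 16.3-fold with 58 reads (44 to 75), rank 147. The lower bounds of both, 51 and 44 reads, were above the 33 reads of the strongest Myc promoter peak, and the second lay below the upper bound of that peak, 46.3 reads. Together with the Mnt intron peak these were the 3 of the 60 above 15-fold, a level reached by 0.853% of all peaks and chosen after the values were seen.

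These 2 peaks belonged to a group of 7 that spanned 134 kb, from 1612 to 1746 kb past the Myc 3′ end. The group was set by joining summits at most 50 kb apart, a distance chosen after the positions were seen. The other 5 peaks of the group were weaker, at 2.33-fold (10 reads, 1617 kb from the start, q above 0.05), 4.2-fold (26 reads, 1626 kb), 6.51-fold (41 reads, 1673 kb), 2.6-fold (19 reads, 1724 kb, q above 0.05) and 5.7-fold (22 reads, 1751 kb). The group lay over the lincRNA genes Gm41335 and 4930449C09Rik and the pseudogene Gm5473, and over 0 protein-coding genes. It held 242 of the 370 summit reads past Myc (65.4%).

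Between Myc and this group, 4 peaks lay in Pvt1, the long noncoding RNA gene next to Myc. They were at 4.77-fold (17 reads, 71.1 kb from the Myc start), 7.41-fold (26 reads, 174 kb), 4.75-fold (15 reads, 193 kb) and 7.77-fold (29 reads, 236 kb). The peaks at 174 and 236 kb were the stronger ones, and both had a Myb motif close to the summit, 7 and 22 bp away. After them came 601 kb without a peak, a single weak peak of 3.22-fold (9 reads, 837 kb, q above 0.05), and another 780 kb without a peak. Past the group, 2 peaks lay in introns of Fam49b, at 3.53-fold (10 reads, 1984 kb) and 7.28-fold (22 reads, 2000 kb).

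**Figure D3:**
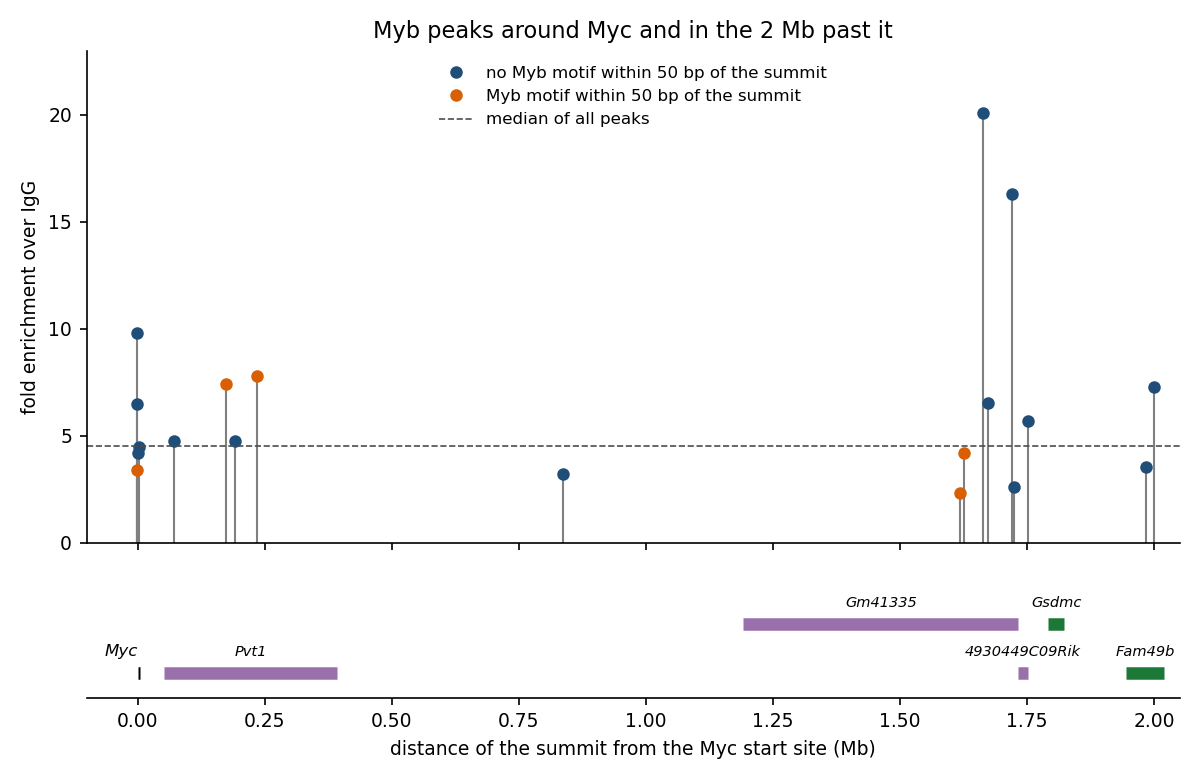
Fold enrichment over IgG of the Myb peaks from Myc to 2 Mb past it, by distance of the summit from the Myc start (Mb). Orange points hold a Myb motif within 50 bp of the summit, the dashed line is the median of all peaks, and bars below mark Myc (black), long noncoding RNA genes (purple) and protein-coding genes (green, with Fam49b cut at the edge and the other Gsdmc genes not drawn). The peaks at 20.1-fold and 16.3-fold stand in a group of 7 after 780 kb without a peak, and neither is orange.

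The number of peaks past Myc was not high. The 2 Mb held 14 peaks (7 per Mb), beside 9.74 per Mb over the genome and 8 peaks in the 2 Mb before Myc. Of those 8, 3 were the promoter peaks and 5 lay beyond 50 kb, with 3.12-fold to 4.47-fold. Over 21691 protein-coding genes with a full 2 Mb past their end, the median was 26 peaks (quartiles 11 and 47), and 29.7% of genes had fewer than Myc. By strength the order was different, and 94.8% of these genes had a weaker strongest peak in that stretch or, as for 1285 of them, no peak there. With summits joined at most 12500 bp apart, the 14 peaks fell into 11 clusters, 3 of them with 2 or more summits and 0 with 3 or more, beside 21.4% of all 13073 clusters with 3 or more. For 34.9% of all peaks, the 134 kb from the summit onward held at least as many summits as the distal group, the starting peak counted. Such a span held 2 or more summits above 15-fold for 0.551% of all peaks. The span and the 15-fold limit were both taken from this group after its values were seen, so these shares do not test whether it is unusual.

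**Figure D4:**
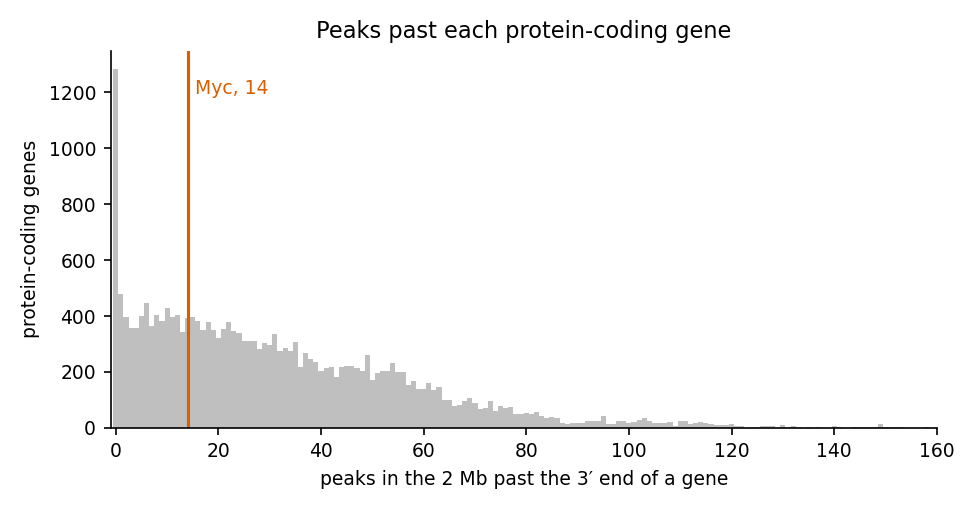
Number of Myb peaks in the 2 Mb past the 3′ end of each of 21691 protein-coding genes (bars, number of genes), with Myc marked by the orange line. Myc, with 14 peaks, lies below the median of 26, and 29.7% of genes have fewer.

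Motifs at the summits were counted in the same way for all peaks. A Myb motif lay within 50 bp of the summit in 10 of the 60 network peaks (16.7%, exact Clopper-Pearson 95% interval 8.29 to 28.5), beside 16.7% of all peaks. The 10 were at Myc (5, of which 4 lay past the gene), Mxi1 (2), Mycl, Max and Mxd4, and they ranged from 2.33-fold to 7.77-fold. Of the 5 network peaks above 9.5-fold, a limit chosen after the values were seen, 0 held the motif at the summit, beside 28.8% (26.4 to 31.3) of the 1370 such peaks in the genome. In the whole width of the peak 4 of the 5 held one, beside 87.7% of all such peaks, and the nearest lay 79 bp from the summit at +1663 kb, 87 bp at the Myc promoter, 158 bp in the Mnt intron and 796 bp at the Mnt promoter. The peak at +1719 kb had none in its whole width. Over the 60 peaks, 35 held a Myb motif somewhere in the peak, beside 58.6% of all peaks.

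The E-box CACGTG lay within 50 bp of the summit in 2 of 60 (3.33%, 0.406 to 11.5), beside 1.83% of all peaks. By position, 34 of the 60 (56.7%) were within 3 kb of a start site of any annotated gene, beside 57.6% of all peaks. A further 14 (23.3%) were in introns, beside 23.9% of all peaks, and 12 (20%) were intergenic, beside 16.7%.

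In RefSeq promoter sequences (GRCm38, 250 bases before to 50 after the start), 9 of the 10 members were matched, all but Myc. A Myb motif was present in 4 of the 9 (Mycn, Max, Mxd3 and Mxi1), beside 31.1% of 27025 genes. The E-box was present in 3 of the 9 (Max, Mxd4 and Mnt), beside 8.09% of genes.

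The wider network was described with lists of 61 genes. Of proteins that control Myc stability and activity, 9 of 10 had a promoter peak, led by the kinase Aurka (7.51-fold) and followed by the phosphatase subunit Ppp2r5a (6.7-fold), the ubiquitin ligase subunit Fbxw7 that marks Myc for degradation (6.21-fold), the deubiquitinase Usp36 (6.02-fold) and the kinase Gsk3b (5.46-fold). Usp28, a deubiquitinase that opposes Fbxw7, had no peak within 50 kb. Of cofactors that Myc recruits to chromatin, 10 of 12 had one, with Ruvbl2 (9.59-fold), Wdr5 (8.33-fold), Paf1 (7.21-fold), Kat5 (6.81-fold) and Trrap (6.16-fold) in the lead.

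Of the Sin3 and histone deacetylase corepressors of the Mxd arm, 7 of 10 had a promoter peak, the strongest at Rbbp4 (8.82-fold), Ing1 (8.64-fold), Sap30 (8.33-fold), Sin3a (7.04-fold) and Suds3 (6.35-fold). Of 20 well-known Myc targets 15 had one, led by the nucleolar protein gene Ncl (10.6-fold), the cyclin gene Ccnd2 (8.46-fold), Odc1 of polyamine synthesis (8.42-fold), the lactate dehydrogenase gene Ldha (8.32-fold) and Nme1 (8.24-fold). Tert had no peak within 50 kb. Of the related factors Mlx, Mlxip and Mlxipl, which sense nutrients, 1 of 3 had a promoter peak, Mlxip at 4.67-fold. Of the 6 neighbors of Myc 5 had one, namely Asap1 (16.2-fold), Fam49b (8.8-fold), Trib1 (8.27-fold), Pvt1 (7.77-fold) and Fam84b (3.5-fold), and Gsdmc, the protein-coding gene nearest the distal group, had none. These counts stand beside the 39.9% of protein-coding genes given above, silent genes of this tissue included, and were not tested.

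**Figure D5:**
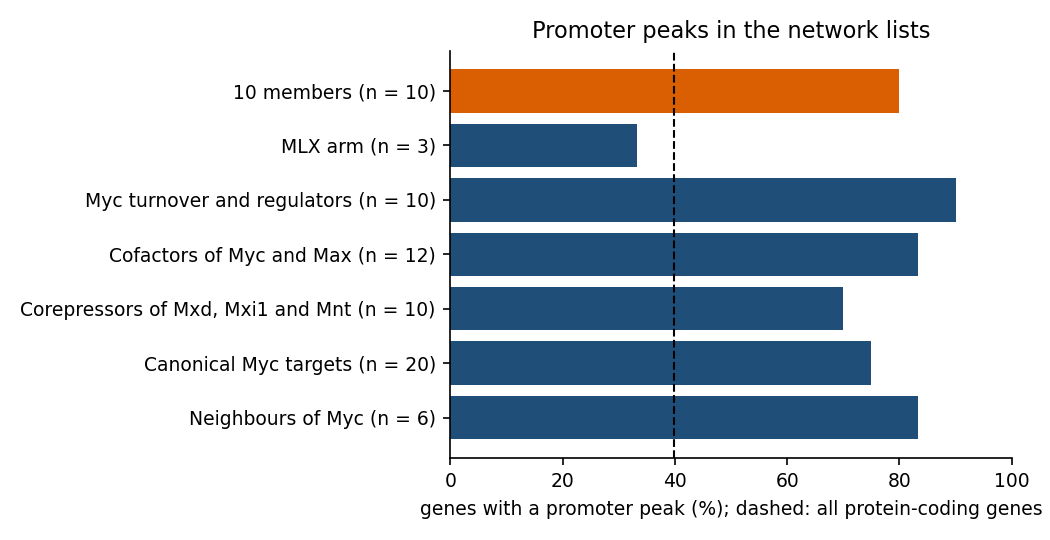
Share of genes with a Myb promoter peak (%) among the 10 members (orange) and in 6 lists of related genes (blue), with the number of genes in each. The dashed line is the share of all protein-coding genes, silent genes of this tissue included (39.9%). The members and 5 of the 6 lists exceed it, and the MLX arm, 1 of 3, does not.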

How the data were processed

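Per the labels and the study's methods, the authors used cutadapt 1.15 for adapter trimming, BWA 0.7.13 for alignment to mm10 and Picard for deduplication. Poorly mapped and blacklisted reads were dropped, and MACS2 2.1.1.20160309 called narrow peaks with IgG as the control. Only peaks shared by pseudo-replicates, which split the reads of 1 library, were kept. The methods state a q-value limit of 0.05 for the calls, yet 7.24% of the deposited peaks list a larger one. Versions are from the submitters' processing notes. The deposited list of the Myb library gives a fold enrichment (a ratio of scaled Myb pileup to local background, each plus 1), the p-value and q-value as −log10 values, and a score, which was not used. The IgG library entered only as that background. The total depth was not given in the sources used here.

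Reads at each summit were recovered by finding the scale (0.769) at which fold and p-value together give whole reads. This held in 100% of rows within 0.0005 on −log10 p, and in 0.14% after the fold was moved by 1 to 5 percent. The step was tested on simulated data. Intervals and shares cover counting error only.

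Summits were assigned with GENCODE vM21, 1-based in mm10 (GRCm38), with a promoter window of 3 kb either side of any transcript start of a gene. Motifs were searched within 50 bp on both strands. The Myb forms are spelled out with the windows in the report, the E-box was CACGTG, and GATA, ETS and RUNX matches were to WGATAR, MGGAAR and TGYGGT, where W is A or T, R is A or G, M is A or C and Y is C or T. Python 3.11.15, numpy 2.4.6, pandas 2.3.3, scipy 1.17.1 and matplotlib 3.10.9 were used. The 2 samples were grouped by title, and with 1 library per group no test was possible. All peaks of the members were named, and in each other list the 5 genes of highest promoter fold enrichment. The members and lists were chosen with earlier results of these data known. One gene in each list of marker loci is not reported here. Alternatives covered the q-value filter, the flank, the promoter window, the stretch past Myc, the joining distance and the motif window.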

Additional observations from a re-analysis of the deposited data

How the results depend on the processing

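All 10 members kept a peak when peaks under 2 or under 5 on the −log10 q scale, or with q above 0.05, were dropped, and with flanks of 10 or 100 kb. With gene bodies alone 7 did, and when the nearest start site had to be the member's, 9 did. Promoter peaks were present at 6 to 8 members under every alternative run. The 46 peaks in genes and flanks became 24 without peaks under 5 on that scale, 17 with gene bodies alone and 21 when the nearest start site had to be the member's. The 14 peaks past Myc became 8 without peaks under 5 on that scale, and 5 over 1 Mb or 1.5 Mb, which end before the distal group. The 3 clusters past Myc with 2 or more summits became 1 with any of the 3 q-value filters or with a gap of 5 kb, and 5 with a gap of 25 kb. These changes follow from counting fewer peaks, a different length or, for the clusters, also a different joining distance. The share of network peaks with a Myb motif became 30% within 100 bp of the summit (30% of all peaks), 55% with the looser form AACNG (54.3% of all peaks) and 58.3% anywhere in the peak (58.6% of all peaks), the last chosen after the data were seen. Within 25 bp it was 15%, beside 8.68% of all peaks. Of 80 recomputed counts for single members, 51 stayed within 1.5 times and 29 did not, 25 of them lower and 4 higher. No paired analysis was possible because each group held 1 library. With 9 to 66 reads per peak, small differences in fold enrichment between peaks were not detectable at this depth.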

Other observations

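In the stretch past Myc, 7 of 14 summits had a GATA motif within 50 bp (50%, exact 95% interval 23 to 77). The share was 20.1% over all peaks and 21.7% over the 60 network peaks, which include these 14. The sets differ in position, because 3 of the 14 lay within 3 kb of an annotated start site, beside 57.6% of all peaks. The 7 summits were at 174, 236, 1617, 1673, 1719, 1724 and 1751 kb from the Myc start. Of these, 5 lay in the distal group, and those at 1617 and 1724 kb had a q-value above 0.05. The peaks at 174, 236 and 1617 kb held a Myb motif as well. An ETS motif was present at 2 of the 14 (14.3%, 1.78 to 42.8), beside 33.5% of all peaks, and a RUNX motif at 0 of the 14 (0 to 23.2), beside 12.2%. These motif comparisons were not planned and the differences were not tested. A motif match does not show that a factor was bound.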
